A study of Danio rerio with 6 samples.

Results

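The genes described here are 8 markers of Müller glia, glula, glulb, gfap, apoeb, fabp7a, cx43, aqp1a.1 and s100b, taken by symbol from a table of 14781 genes. All 8 symbols were found, and each matched an NCBI gene record as a protein-coding gene (cx43 under its current symbol gja1b). Müller glia are the radial glia of the vertebrate retina, whose processes span it from the photoreceptors to the inner surface. They take up the glutamate that neurons release and turn it into glutamine, carry water and potassium away from active synapses, supply lipids, and join to each other through gap junctions. In zebrafish they can also divide after injury and give rise to new neurons. Markers of these cells were read here in cells sorted for a cone reporter, so they are genes of a cell type that the sort was not aimed at.

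The RNA came from zebrafish eyes at 5 days post-fertilization. There were 3 libraries labelled samd7-/-, from crosses in which both parents were homozygous for the samd7 stl888 allele and 1 carried the thrb:tdTomato transgene, and 3 WT libraries came from WT parents of which 1 carried the same transgene. The transgene puts a red fluorescent protein under control of thrb, a thyroid hormone receptor gene used in cones that become red cones, and red-fluorescent cells were sorted in both genotypes. Each library was a pool of 40 to 50 eyes of 20 to 25 larvae from its own clutch. The genotypes had different parents, so genotype and parental line cannot be told apart, and only some larvae of each clutch were genotyped.

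Levels are normalized counts, which the authors made by dividing the reads of each gene by a scaling factor of the library. They are not divided by gene length, so levels of different genes are not ranked against each other. The samd7-/- libraries held 18418834 to 20369266 recovered reads and the WT libraries 13435570 to 18911482. A count of 0 allows up to 2.24 to 2.62 normalized counts in the samd7-/- libraries and 2.93 to 3.99 in WT, taken as 3 reads and covering counting error only. Each library was made from 300 pg of RNA, with 14 cycles of cDNA and 15 of library amplification. Transcripts lost before sequencing are not covered by that limit. The samd7 transcript had 24544, 24733 and 23712 normalized counts in the samd7-/- libraries, against 8711, 7262 and 7075 in WT. It was thus higher in the samd7-/- libraries, and since the labels do not say how the allele acts on the transcript, its level does not check the genotype. On the first principal component (29.0% of the variance) samd7-/- libraries 1 to 3 lay at -22.1, -24.4 and -112.2, and WT libraries 1 to 3 at 24.9, 88.9 and 44.9. On the second principal component (22.8%) samd7-/- library 3 lay at -75.0, against 66.1 and 49.6 for the others of its group. There WT library 2 lay at -75.5, against 29.6 and 5.15 for the others of its group. In these bulk libraries, more cells of a type and more RNA per cell cannot be told apart.

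Of the 8 genes, 7 reached 10 normalized counts in 3 or more libraries and were tested. The glutamine synthetase gene glula rose in the samd7-/- libraries, to 2.08 times its WT mean. Its paralog glulb and the lipid-binding gene fabp7a had ratios of means of 2.00 and did not pass when adjusted over all genes, and the gap-junction gene cx43 had a ratio of 2.11 and did not pass. The lipid carrier apoeb had nearly the same mean level in both genotypes. The filament gene gfap was at or near 0 in 3 of the 6 libraries, and s100b was listed at 0 in 5.

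With limma and Benjamini-Hochberg adjustment over all 9886 tested genes at a threshold of 0.05, 1 of the 7 tested markers was called, against 5.17% of all tested genes. That marker was higher in the samd7-/- libraries, as were 1.26% of all tested genes. At an unadjusted p under 0.05, 3 of the 7 were higher, against 9.3% of all tested genes. The samd7-/- and WT libraries did not overlap for 2 of the 7, both higher, against 12.1% of all tested genes that were higher without overlap. The median log2 difference of the 7 was 0.95, against 0.05 over all tested genes.

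**Figure D1:**
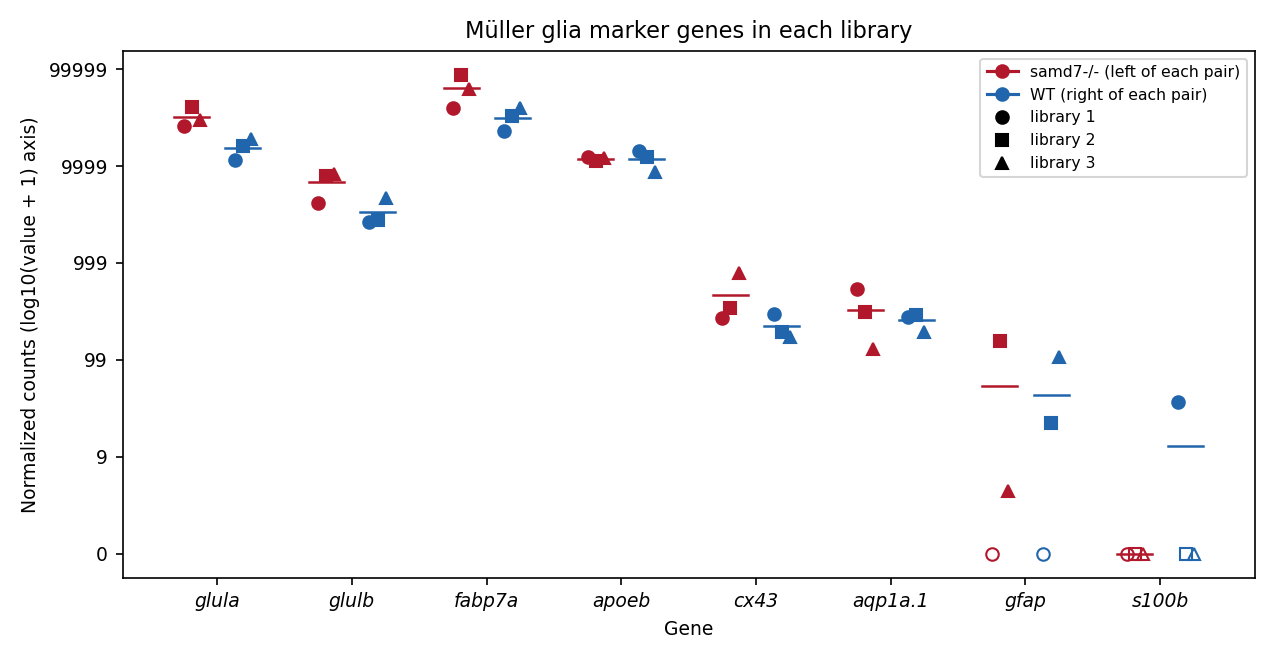
Normalized counts of the 8 Müller glia marker genes in each library, on a log10(value + 1) axis, with samd7-/- libraries left and WT libraries right of each pair; horizontal lines are group means and open symbols are values of 0. The samd7-/- values lie above all WT values for glula and fabp7a, while gfap and s100b include libraries at 0.

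The 2 glutamine synthetases are the enzymes with which Müller glia turn glutamate into glutamine. The level of glula was 25748, 40868 and 29843 normalized counts in samd7-/- libraries 1 to 3, against 11416, 15898 and 18956 in WT libraries 1 to 3. All samd7-/- libraries were higher than all WT libraries, with samd7-/- library 2 the highest and WT library 1 the lowest. The mean was 32153 ± 7820 in the samd7-/- libraries and 15423 ± 3792 in WT (SD, n = 3 each, as for all means below). The log2 difference, on the log2(value + 1) scale used throughout, was 1.06 (SE 0.21, 95% interval 0.61 to 1.52, limma adjusted p = 0.0102). Leaving out WT library 1 took the difference to 0.86 and the adjusted p to 0.0632. The call held without samd7-/- library 3 (adjusted p = 0.0203) and without WT library 2 (adjusted p = 0.0431).

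The level of glulb was 4183, 7923 and 8200 normalized counts in samd7-/- libraries 1 to 3, against 2623, 2802 and 4718 in WT libraries 1 to 3. The groups overlapped, because WT library 3 lay above samd7-/- library 1. The mean was 6769 ± 2244 in the samd7-/- libraries and 3381 ± 1161 in WT, and the log2 difference of 0.99 missed the threshold (SE 0.28, 95% interval 0.39 to 1.59, limma adjusted p = 0.0614). It passed without WT library 3 (adjusted p = 0.0289) and without samd7-/- library 1 (adjusted p = 0.0160). The test therefore called glula and not glulb, and whether the paralogs differ was read from the share of glulb in the sum of the pair, which does not depend on library scaling. That share was 14.0%, 16.2% and 21.6% in samd7-/- libraries 1 to 3, against 18.7%, 15.0% and 19.9% in WT libraries 1 to 3. The means were 17.3% ± 3.89 in the samd7-/- libraries and 17.9% ± 2.57 in WT, a difference smaller than the spread between libraries (two-sided exact permutation p = 0.9, where 3 against 3 libraries cannot go below 0.1). The handling of reads that fit both paralogs is unknown here, so the split between them is uncertain.

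The brain-type fatty acid-binding protein gene fabp7a marks radial glia and neural progenitors. It had 40105, 87398 and 61513 normalized counts in samd7-/- libraries 1 to 3, against 22757, 32493 and 39421 in WT libraries 1 to 3. The groups did not overlap, but samd7-/- library 1 lay only just above WT library 3. The mean was 63005 ± 23682 in the samd7-/- libraries and 31557 ± 8371 in WT, and the log2 difference of 0.96 missed the threshold (SE 0.27, 95% interval 0.37 to 1.55, limma adjusted p = 0.0662). It passed without samd7-/- library 1 (adjusted p = 0.0160) and without WT library 3 (adjusted p = 0.0495). The ratio of fabp7a to glula within a library was 1.56, 2.14 and 2.06 in the samd7-/- libraries, against 1.99, 2.04 and 2.08 in WT, so the 2 genes kept a near-constant ratio in 5 of the 6 libraries.

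The choice of test decided how many of these genes were called. On recovered reads edgeR called 1 of the 7 markers (glula, adjusted p = 0.0281), against 4.36% of all tested genes (1.04% called higher), and gave adjusted p = 0.0881 for glulb and 0.0810 for fabp7a. With DESeq2, glula (adjusted p = 4.26e-05), fabp7a (adjusted p = 0.00171) and glulb (adjusted p = 0.00631) were called, against 15.6% of the 5668 genes it gave an adjusted p (5.82% called higher). In the authors' deposited table the adjusted p was 0.000122 for glula, 0.00448 for fabp7a and 0.0126 for glulb, with log2 fold changes of 1.06, 0.998 and 1.002. The 3 tools placed the log2 difference of these genes between 0.96 and 1.06. Scaling by library totals moved the median log2 difference of all tested genes by 0.23. Relative to the median of all genes, glula then lay 1.02 higher, as it did under the authors' scaling.

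**Figure D2:**
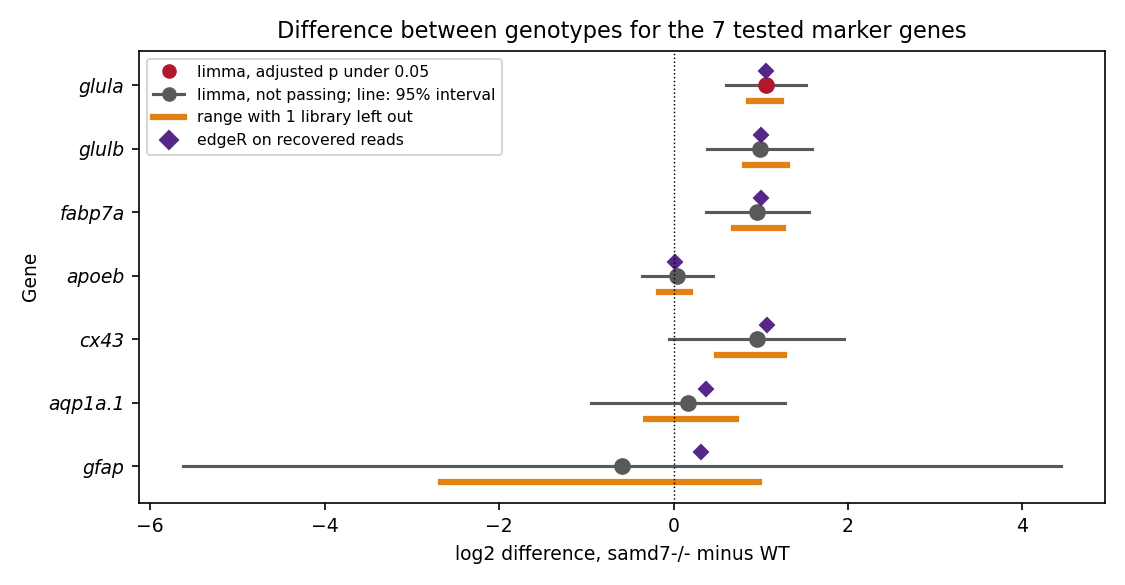
Log2 difference of samd7-/- minus WT for the 7 tested markers; circles with grey lines are limma estimates with 95% intervals, red marks an adjusted p under 0.05, orange bars span the estimates with 1 library left out, and diamonds are edgeR estimates. The glula, glulb, fabp7a and cx43 estimates lie between 0.95 and 1.06, apoeb lies at 0.04, and the interval of gfap runs from -5.62 to 4.44.

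The apolipoprotein E gene apoeb, which carries lipids between cells and in zebrafish is also made by microglia, had 12525, 11154 and 11992 normalized counts in samd7-/- libraries 1 to 3, against 14178, 12461 and 8656 in WT libraries 1 to 3. The samd7-/- values lay inside the WT range. The mean was 11890 ± 691 in the samd7-/- libraries and 11765 ± 2826 in WT. The log2 difference was 0.04 (SE 0.19, 95% interval -0.37 to 0.45, limma adjusted p = 0.934), and the interval excludes a 2-fold change in either direction. Within a library the ratio of glula to apoeb was 2.06, 3.66 and 2.49 in the samd7-/- libraries, against 0.805, 1.28 and 2.19 in WT. These ratios overlapped, since WT library 3 lay above samd7-/- library 1, and they were not tested.

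The connexin gene cx43 encodes a gap-junction channel that couples glial cells. It had 270, 342 and 782 normalized counts in samd7-/- libraries 1 to 3, against 295, 194 and 173 in WT libraries 1 to 3. The groups overlapped, and samd7-/- library 3, which also lay apart on the second principal component, held the highest value. The mean was 465 ± 277 in the samd7-/- libraries and 221 ± 65.0 in WT, and the log2 difference of 0.95 missed the threshold (SE 0.47, 95% interval -0.05 to 1.96, limma adjusted p = 0.290). Without samd7-/- library 3 the difference was 0.50 (adjusted p = 0.629).

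The water channel gene aqp1a.1, which red blood cells and vessels also use, had 543, 312 and 130 normalized counts in samd7-/- libraries 1 to 3, against 277, 292 and 194 in WT libraries 1 to 3. The samd7-/- libraries held both the highest and the lowest value. The mean was 328 ± 207 in the samd7-/- libraries and 254 ± 52.3 in WT, and the log2 difference of 0.16 missed the threshold (SE 0.52, 95% interval -0.95 to 1.28, limma adjusted p = 0.906).

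The glial filament gene gfap, a standard marker of Müller glia and astrocytes, had 0, 156 and 3.49 normalized counts in samd7-/- libraries 1 to 3, against 0, 21.5 and 106 in WT libraries 1 to 3. These came from 0, 209 and 4 recovered reads in the samd7-/- libraries and from 0, 22 and 80 in WT. Both genotypes thus held a library with no read and a library above 100 normalized counts, and the limma log2 difference of -0.59 had an SE of 2.34 (95% interval -5.62 to 4.44, adjusted p = 0.928). The direction turned to 0.32 with edgeR, and no difference was detectable at this RNA input, depth and spread. The calcium-binding protein gene s100b, known from astroglia, was at 0 in all 3 samd7-/- libraries and in WT libraries 2 and 3, and had 36.1 normalized counts in WT library 1, from 30 reads. It did not pass the filter and was not tested. WT library 1 also held the most of the epidermal gene icn, a member of the same S100 family (2847, against 104 and 0 in the other WT libraries), and of the skin keratin gene krt4 (10449, against 2154 and 433), a gene named after its values were seen. The part of these cells in the s100b value was not tested. The gene icn is also counted in the wider list of Müller glia genes below.

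The markers of the set were thus detected unevenly, and the cells that carried their transcripts were not identified. Transcripts of glula, glulb, fabp7a and apoeb had 2623 normalized counts or more in every library, whereas the structural marker gfap was at 0 in a library of each genotype. Together the 8 genes summed to 83375, 148152 and 112464 normalized counts in samd7-/- libraries 1 to 3, against 51582, 64162 and 72224 in WT libraries 1 to 3. Of this sum, fabp7a and glula made up 79.0% to 86.6% in the samd7-/- libraries and 66.3% to 80.8% in WT, so the sum mostly restates those 2 genes.

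Other genes known from Müller glia were read from a list of 44 symbols, of which 41 were in the table and 36 were tested. Of these 2 rose and 1 fell (median log2 difference 0.40, against 0.05 over all tested genes), and 33 did not pass. The call rate over all genes was 1.26% higher and 3.9% lower. The groups did not overlap for 8 that were higher and 1 that was lower, against 12.1% and 12.4% of all tested genes. The 41 genes summed to 44901, 58470 and 45565 normalized counts in samd7-/- libraries 1 to 3, against 46741, 40860 and 48088 in WT libraries 1 to 3. These sums overlapped between genotypes.

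The sodium pump gene atp1a1b, whose product holds the ion gradients that drive glutamate uptake, had 1669.5, 2458 and 1665 normalized counts in samd7-/- libraries 1 to 3, against 423, 636 and 789 in WT libraries 1 to 3 (log2 change 1.67, SE 0.28, limma adjusted p = 0.00352). All samd7-/- libraries were more than 2-fold above the highest WT library. The acyl-CoA-binding gene dbi had 2936, 3234 and 3803 in the samd7-/- libraries, against 1792, 1514 and 1639 in WT (log2 change 1.01, SE 0.20, limma adjusted p = 0.00849, and 0.0502 without WT library 2). The glutamate transporter gene slc1a2a fell, with 3583, 2713 and 4287 in the samd7-/- libraries, against 10798, 8821 and 7300 in WT (log2 change -1.35, SE 0.21, limma adjusted p = 0.00184). Its values did not overlap between genotypes, and its direction was opposite to that of glula. Which of the sorted cells carried slc1a2a was not tested.

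The abundant genes of the list that did not pass included further Müller glia markers. The retinoid-binding protein gene rlbp1a, which serves the regeneration of visual pigment, had 3923, 11178 and 6595 normalized counts in samd7-/- libraries 1 to 3, against 2019, 2430 and 4385 in WT libraries 1 to 3. The groups overlapped in that WT library 3 lay above samd7-/- library 1, and the log2 difference of 1.25 did not pass (SE 0.38, limma adjusted p = 0.103). It passed without samd7-/- library 1 (adjusted p = 0.0153), without WT library 3 (adjusted p = 0.0292) and with DESeq2 (adjusted p = 0.00267). The glutamate transporter gene slc1a2b, a paralog of slc1a2a, had 2492, 8291 and 4171 in the samd7-/- libraries, against 1360, 2290 and 3976 in WT (log2 difference 0.93, SE 0.49, limma adjusted p = 0.359). The estimates of the transporter paralogs thus had opposite signs, a contrast that was not itself tested. The growth factor genes mdka and mdkb had log2 differences of -0.25 and 0.28, the membrane glycoprotein gene gpm6bb one of -0.31 and the cadherin gene cdh2 one of 0.25, with limma adjusted p between 0.510 and 0.764. The list members slc1a3b and glulc were listed at 0 in all 6 libraries.

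**Figure D3:**
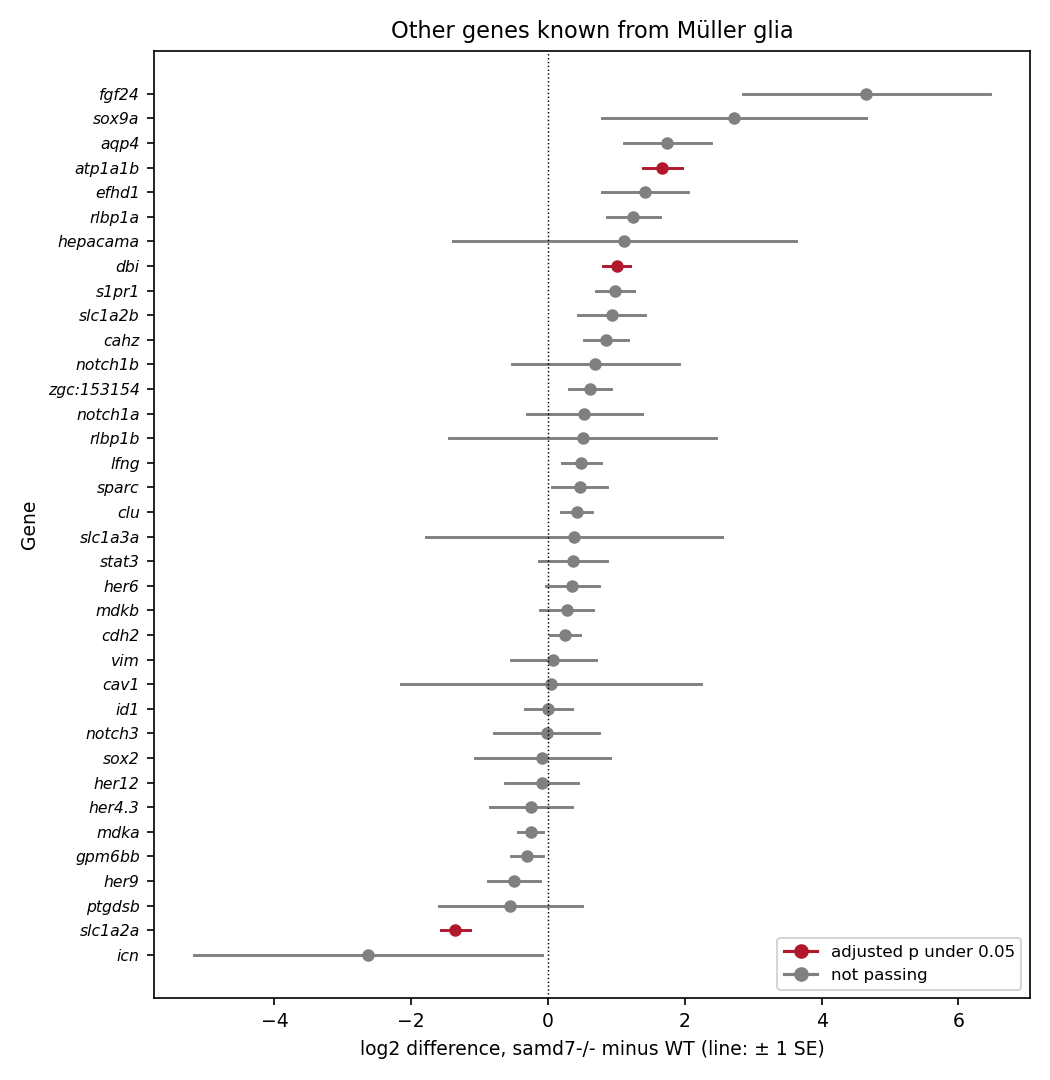
Log2 difference of samd7-/- minus WT, with lines of ± 1 SE, for the 36 tested genes of the wider Müller glia list; red marks an adjusted p under 0.05. Estimates of atp1a1b and dbi lie above 0 and that of slc1a2a below 0, while fgf24 and icn, which are at 0 in some libraries, have wide errors.

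Several Müller glia genes had the same highest library within each genotype, and the order of the other libraries was not compared. For glula, fabp7a and gfap the highest samd7-/- library was library 2 and the highest WT library was library 3, which makes 3 of the 7 tested markers, against 10.6% of all tested genes. The same held for 9 of the 36 tested genes of the wider list, among them rlbp1a, slc1a2b and atp1a1b. For gfap this rests on 0 to 209 reads per library. The other tested markers did not share this pair of libraries: glulb was highest in library 3 of both genotypes and apoeb in library 1 of both. The highest libraries were samd7-/- library 3 and WT library 1 for cx43, and samd7-/- library 1 and WT library 2 for aqp1a.1. This reading was chosen after the values were seen and is a description with no test.

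**Figure D4:**
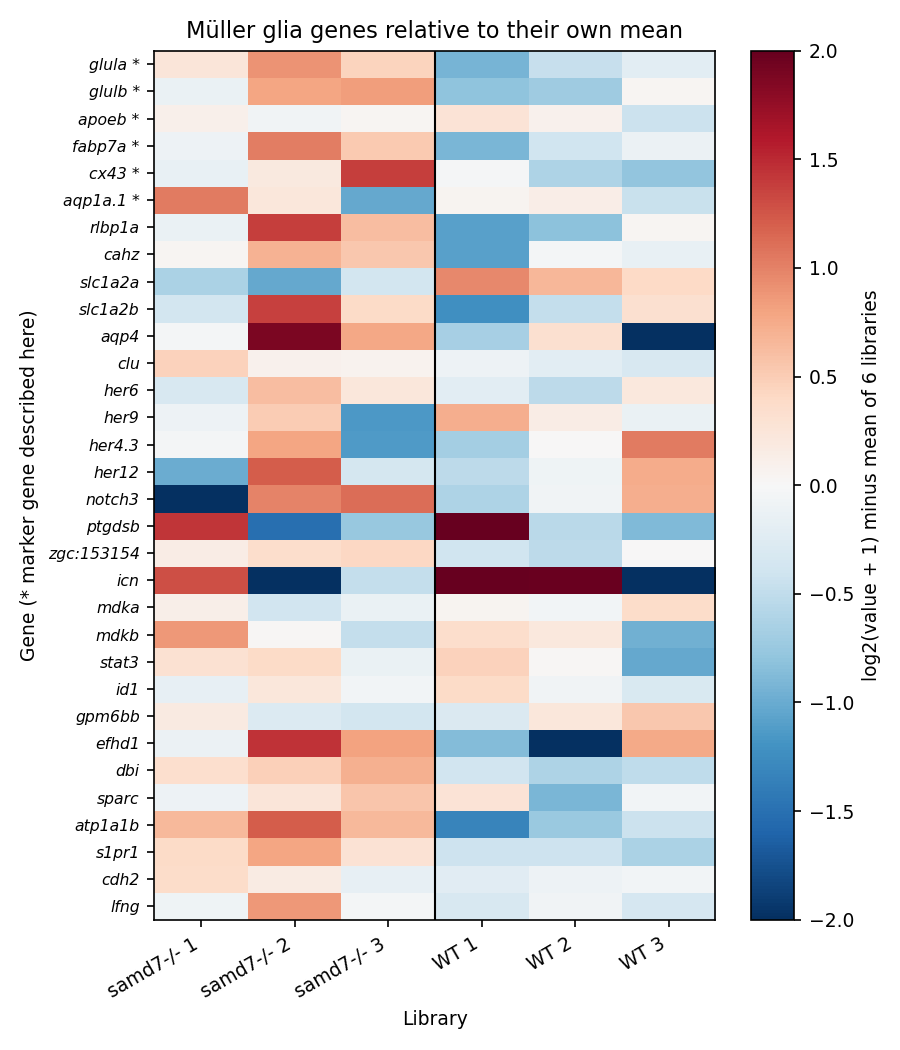
Log2(value + 1) of the 32 Müller glia genes whose 2 group means sum to at least 400 normalized counts, in each library, less the gene's own mean over 6 libraries; asterisks mark the marker genes described here, samd7-/- libraries stand left of the line, and colours saturate at -2 and 2. Library 2 of samd7-/- is the reddest column for fabp7a, rlbp1a, slc1a2b and her12, and apoeb is pale throughout.

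Likeness of pattern was measured as the root-mean-square difference of log2(value + 1), each gene centred on its own mean over the 6 libraries, so a small value means a like pattern. Among the markers the most alike pair was glula and fabp7a, at 0.15, followed by glulb and fabp7a at 0.22 and glula and glulb at 0.27. By comparison apoeb lay 0.70 from glula. Among all other tested genes the nearest to glula was pax6a, a transcription factor of retinal progenitors and amacrine cells, at 0.13, followed by sema4ba at 0.15. For fabp7a the nearest were sema4ba at 0.15 and acbd7 at 0.20, for cx43 lmx1a at 0.14, for apoeb arpc1b at 0.05, for aqp1a.1 exosc7 at 0.13, and for gfap sox8a at 0.74. This centring keeps the difference between genotypes in the distance, so the likeness is not separate from the log2 differences given above. With 6 libraries and 9886 genes such likeness is a description.

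Of 15 tested genes of glutamate uptake and glutamine handling 0 rose and 2 fell, against 1.26% higher and 3.9% lower over all tested genes. These were slc1a2a and the transporter gene slc1a8b (225 ± 47.6 in the samd7-/- libraries and 690 ± 182 in WT, log2 change -1.61, limma adjusted p = 0.0216). The call of slc1a8b was lost without WT library 2 (adjusted p = 0.129) or WT library 3 (adjusted p = 0.0580) and with scaling by library totals (adjusted p = 0.0540). The median of this list was 0.27, against 0.05 over all tested genes. Of 3 tested fatty acid-binding protein genes the heart-type gene fabp3 rose (2546 ± 592 in the samd7-/- libraries and 1186 ± 224 in WT, log2 change 1.09, limma adjusted p = 0.0158, and 0.0729 without WT library 1). The groups did not overlap for fabp3, and fabp11a did not pass (log2 difference 0.36).

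Of 12 tested apolipoprotein, lipid receptor and lipid exporter genes 2 rose and 1 fell, against 1.26% higher and 3.9% lower over all tested genes (median 0.89, against 0.05). The sterol exporter gene abcg1 fell, with 6145 ± 2706 in the samd7-/- libraries and 15798 ± 2515 in WT (log2 change -1.44, limma adjusted p = 0.00491). The apolipoprotein genes apoa1b (331 ± 233 in the samd7-/- libraries and 48.1 ± 23.4 in WT, log2 change 2.64, limma adjusted p = 0.0437) and apoda.2 (349 ± 195 in the samd7-/- libraries and 61.8 ± 41.2 in WT, log2 change 2.55, limma adjusted p = 0.0445) rose. The call of apoa1b was lost whichever 1 library was left out (limma adjusted p 0.0502 to 0.180). With 1 library left out the call of apoda.2 held only without WT library 3 (limma adjusted p = 0.0297). Its adjusted p reached 0.244 without samd7-/- library 1, and edgeR did not call it (adjusted p = 0.0557). The marker apoeb itself was not called by limma, edgeR or DESeq2.

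The counts in the connexin, aquaporin, intermediate filament and S100 families are again set against 1.26% higher and 3.9% lower. Of 7 tested connexin genes other than cx43, cx52.9, known from horizontal cells, rose (2783 ± 735 in the samd7-/- libraries and 1525 ± 100.4 in WT, log2 change 0.84, limma adjusted p = 0.0465). With 1 library left out its call held only without samd7-/- library 2 (limma adjusted p = 0.0312), and without WT library 2 the adjusted p was 0.146. Of 8 other tested aquaporin genes aqp9a rose (14038 ± 2006 in the samd7-/- libraries and 7450 ± 519 in WT, log2 change 0.91, limma adjusted p = 0.00623) and its paralog aqp9b fell (4977 ± 2462 in the samd7-/- libraries and 15815 ± 4914 in WT, log2 change -1.72, limma adjusted p = 0.0116). Their products pass glycerol as well as water, and both calls held with each library left out in turn. The Müller glia water channel gene aqp4 had 297, 1122 and 521 in the samd7-/- libraries, against 191, 378 and 62.6 in WT (log2 difference 1.75, limma adjusted p = 0.144), and it was named after its values were seen. Of 8 tested intermediate filament genes other than gfap the neuronal filament gene inaa fell (9810 ± 932 in the samd7-/- libraries and 22635 ± 872 in WT, log2 change -1.21, limma adjusted p = 0.000435). Of 5 tested S100 genes 0 passed with limma, edgeR or DESeq2. At an unadjusted limma p under 0.05 there were 0 of the 5, against 1893 of 9886 over all tested genes in either direction. The most abundant by count was icn (27.6 ± 33.2 in the samd7-/- libraries and 984 ± 1614 in WT, a mean that rests on WT library 1).

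Markers of other cell types that could carry these transcripts are given with their calls, against 1.26% higher and 3.9% lower over all tested genes, and with medians, against 0.05. The summed level of 29 progenitor and dividing-cell markers was 84840 to 91013 in the samd7-/- libraries and 64281 to 69828 in WT, with 5 of 29 tested genes higher and 0 lower (median 0.70). Its most abundant members by count, hmgb2a and rx1, did not pass. The 20 amacrine markers in the table summed to 28913 to 32555 in the samd7-/- libraries and 18782 to 26394 in WT (4 of 15 higher, 0 lower, median 0.97, with chatb, th and neurod2 at 0). The 15 horizontal cell markers summed to 30473 to 35985 in the samd7-/- libraries and 21887 to 28018 in WT (3 of 15 higher, 0 lower, median 0.67). The progenitor and amacrine lists both hold pax6a and pax6b, which were called higher and so count in both. The amacrine and horizontal cell lists both hold gad2 and slc32a1, so the sums of lists that share genes are not independent. The sums of all 3 lists did not overlap between genotypes, as was so for glula and fabp7a, and their part in those results was not tested.

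Of the 25 cone genes 13 fell and 3 rose, against 1.26% higher and 3.9% lower over all tested genes (median -0.75, against 0.05). They summed to 2652110 to 4385450 in the samd7-/- libraries and 4171700 to 4294520 in WT. The 20 microglia markers, which bear on apoeb, summed to 2386 to 3998 in the samd7-/- libraries and 2254 to 4165 in WT, with 0 of 12 tested genes called by limma, edgeR or DESeq2 and 0 at an unadjusted p under 0.05. The 21 endothelial and blood markers, which bear on aqp1a.1, summed to 589 to 1651 in the samd7-/- libraries and 479 to 1464 in WT, with 0 of 10 called by any of the 3 tools and 0 at an unadjusted p under 0.05, and with hbaa1, alas2 and gata1a among 6 members at 0. The groups overlapped for both lists, and the median was 0.18 for the microglia list and -0.96 for the endothelial and blood list. The 18 lens, cornea and skin markers, which bear on s100b, had 0 of 15 tested genes higher and 1 lower (median -1.06, against 0.05 over all tested genes). They summed to 3577 to 7574 in the samd7-/- libraries and 17403 to 33663 in WT, highest in WT library 1. Their most abundant members by count were kera and krt4, and how far these carried the sum was not tested. The 11 oligodendrocyte and radial glia markers, which bear on gfap, summed to 340 to 1351 in the samd7-/- libraries and 408 to 779 in WT. Of 4 tested genes 0 were called by limma, edgeR or DESeq2 and 1 had an unadjusted limma p under 0.05 (median 0.54). Over all tested genes 1893 of 9886 had an unadjusted limma p under 0.05, in either direction. The unadjusted counts of the microglia list and of the endothelial and blood list are set against the same share.

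The remaining lists were ganglion cells, bipolar cells, rods and pigment epithelium. The 19 ganglion cell markers summed to 4963 to 5612 in the samd7-/- libraries and 3548 to 3716 in WT (1 of 15 higher, 0 lower, median 0.61), with no overlap. The 20 bipolar cell markers summed to 15193 to 16780 in the samd7-/- libraries and 12549 to 15314 in WT (1 of 18 higher, 0 lower, median 0.90), with overlap. The 16 rod markers summed to 153308 to 244847 in the samd7-/- libraries and 299172 to 382661 in WT (0 of 16 higher, 1 lower, median -0.88), lower in every samd7-/- library. The 17 pigment epithelium markers summed to 9070 to 10634 in the samd7-/- libraries and 25932 to 29502 in WT (0 of 9 higher, 1 lower), a difference carried by bhlhe40. Without bhlhe40 that sum was 393 to 876 in the samd7-/- libraries and 166 to 888 in WT, with overlap, and the median of its 9 tested genes was 1.23.

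**Figure D5:**
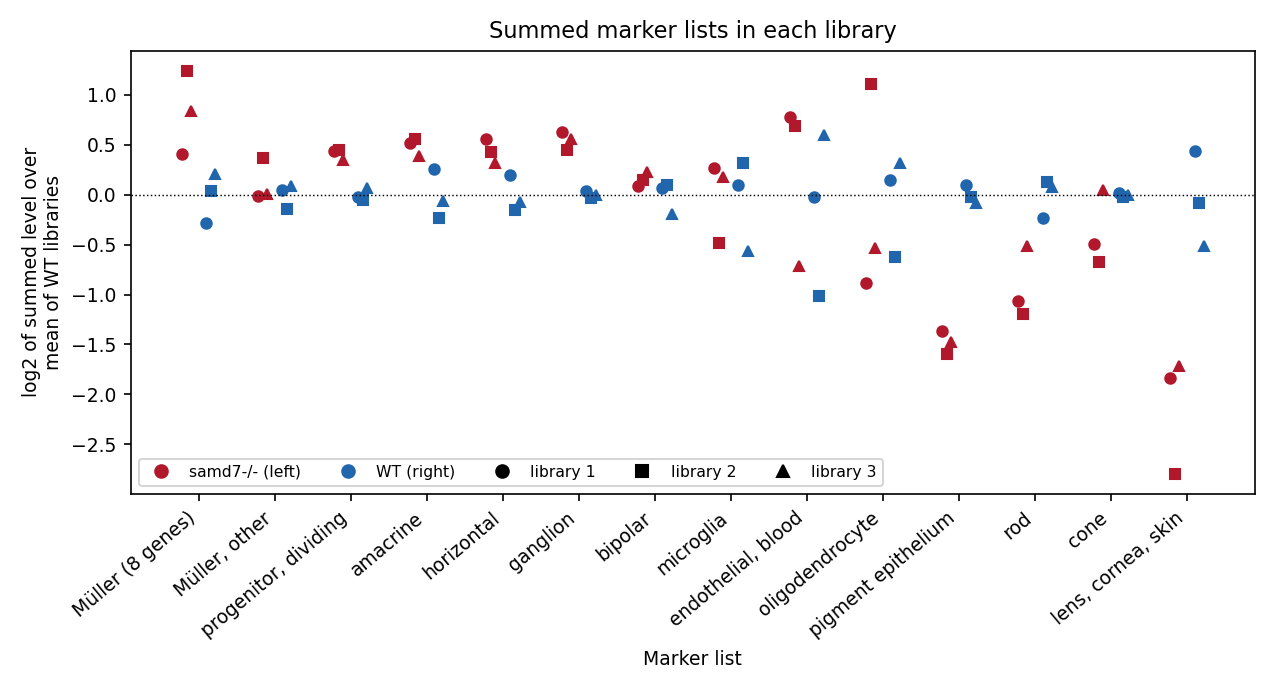
Log2 of the summed level of each marker list in each library over the mean of the WT libraries, with samd7-/- libraries left and WT libraries right of each position. The 8 Müller glia markers, the progenitor list, the amacrine list, the horizontal cell list and the ganglion cell list lie higher in every samd7-/- library than in any WT library, and the rod list, the pigment epithelium list (through bhlhe40) and the lens, cornea and skin list lie lower. The list of other Müller glia genes overlaps between genotypes.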

How the data were processed

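The submitters' processing notes name HTSeq 0.9.1, STAR 2.7.2b, DESeq2 1.34.0 with R 4.1.3, Trim Galore 0.6.1 and build danRer10; annotation, strand setting and shared reads are not described in them. The authors deposited 1 signal column per library, 2 means, and their own comparison with log2 fold changes and adjusted p-values. In the deposited signal 100% of values above 0 were whole multiples of 1 step per library to within 0.01 read, so whole reads could be had back from the authors' scaling. Deposited means matched the library columns to within 0.00037, and the authors' log2 fold changes run as samd7-/- over WT (99.976% by sign).

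Values were tested as log2(value + 1) with limma 3.58.1 in R 4.3.3 (trend and robust options, genotype only) for genes at or over 10 normalized counts in 3 or more libraries; the script was tested on simulated data. Recovered reads were tested with edgeR 4.0.16 and DESeq2 1.42.0. Replicates were not the same library (chi-square per degree of freedom 52.1 to 166). All 8 markers are named; from the wider list the called genes and the 8 most abundant; from each family up to 4 called genes, or the most abundant. The markers and lists were chosen with earlier results of these data known. List symbols were matched by name or older symbol (403 of 459, 28 by older symbol) through a RefSeq table of another build, so no coordinates are given. Sequences were not used here.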

Additional observations from a re-analysis of the deposited data

How the results depend on the processing

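The 3 counts below and the log2 differences of the tested markers and named genes were recomputed under 16 alternatives, except where DESeq2 or a filter gave no value (14 for gfap), and the glulb share under 6. Counts of the other lists, sums and pattern distances were not recomputed. The number of genes changed, 511 of 9886 tested, was 547 of 9886 with a pseudocount of 5 and 667 of 9932 with library totals. It was 883 of 5668 with DESeq2, 27 without the trend and robust options, and between 225 and 573 with 1 library left out. The number of markers changed, 1, was 3 with a pseudocount of 5, 3 with DESeq2, 2 with library totals, 0 without the trend and robust options, and between 0 (without WT library 1) and 3 with 1 library left out. Of the other Müller glia genes, 3 in the main test, 5 changed with DESeq2, 0 without the trend and robust options, and between 2 and 5 with 1 library left out. Scaling by library totals turned the calls from 24.5% to 62.2% higher. The log2 difference of glula was positive under all 16 alternatives, from 0.86 to 1.295, and its call was lost under 2 (adjusted p from 4.26e-05 to 0.259). Those of glulb (0.82 to 1.31), fabp7a (0.69 to 1.25) and cx43 (0.50 to 1.26) were positive under all 16 as well. Directions turned for gfap (0.32 with edgeR, -2.66 to 0.99 with 1 library left out). With 1 library left out they turned too for apoeb (-0.16 to 0.19), aqp1a.1 (-0.31 to 0.71), mdkb (-0.14 to 0.59) and icn (-5.66 to 0.075). The glulb share differed by -2.76 to 1.03 percentage points with 1 library left out, -0.61 in all. The cause of these shifts was not tested.

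Libraries of different genotypes share only a replicate number: deviations of same-numbered libraries correlated at 0.05, -0.03 and 0.01, and not every library correlated best with its own number. With a replicate block 431 genes, 3 markers and 4 other Müller glia genes were called. For gfap and s100b, the values rest on 0 to 209 reads per library.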
